A study of Arabidopsis thaliana with 18 samples.

Results

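Seedlings of the pif4 mutant were compared with wild-type seedlings in the warm, at 29 °C, to find which transcripts differed with the loss of the growth regulator PIF4. The comparison was between 6 libraries, 3 of the wild type and 3 of pif4, chosen by genotype and temperature alone. The spread was estimated from all 18 libraries of the series. All were RNA-seq libraries from Arabidopsis thaliana seedlings of the Columbia strain on day 7. The wild type carried no labelled mutation and the mutant is labelled PIF4-/-. Its allele, the time spent at 29 °C and the hour of harvest were not given in the sources used here. Other libraries were the same genotypes at 22 °C and a bbx18 bbx23 double mutant at both temperatures, with 3 libraries in each group. The labels do not say whether replicates came from separate plantings, so the p-values reflect no more than the spread between samples, which may be technical.

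PIF4 is a basic helix-loop-helix transcription factor that binds E-box elements of promoters, among them the G-box CACGTG and the CATGTG element. In warm seedlings it is known to drive hypocotyl elongation, in large part through auxin: it activates auxin biosynthesis genes such as YUC8, and auxin then induces Aux/IAA, SAUR and cell wall genes. Phytochrome B, ELF3 and HY5 are known to restrain it. Whole seedlings were sampled, and in such material fewer cells of a type and less RNA per cell cannot be told apart.

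Values are FPKM, reads per gene scaled to transcript length and library size. Differences are on log2(FPKM + 1), pif4 minus wild type, given ± standard error, and this scale understates changes of genes at low FPKM. The words rose and fell are kept for genes whose limma p, adjusted over all 19116 genes tested by Benjamini-Hochberg, was under 0.05. Between 17883 and 18367 genes reached 1 FPKM in these 6 libraries, and summed FPKM ran from 744698 to 963730. Steps between low values pointed to roughly 18.7 to 26.6 M reads in each, a rough estimate made with exon lengths of the reference annotation. The second principal component, with 20% of the variance, separated replicate 1 from replicate 2 at 29 °C in both genotypes but put replicate 3 on opposite sides, so the genotypes were not balanced along it. Replicates 1, 2 and 3 lay at -30.29, 31.36 and -14.43 in the wild type and at -41.26, 31.97 and 20.1 in pif4. Summed FPKM of 21 heat shock genes was 294, 1788 and 544 in the wild type and 382, 2412 and 458 in pif4, so replicate 2 stood highest in both. The part of this structure in the results below was not tested, beyond the values given with a replicate block.

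In pif4 at 29 °C, 19 genes fell and 7 rose, or 0.136% of the genes tested in either direction. By direction, 0.0994% of genes fell and 0.0366% rose. Those that fell included the auxin repressor genes IAA19, IAA34 and IAA7, the xyloglucan enzyme gene XTH17, the jasmonate sulfotransferase gene ST2A, the acyl-CoA reductase gene FAR1, the desaturase gene ADS1 and PIF4. Of those that rose, 4 averaged under 5 FPKM in the wild type, and the 3 with the largest differences are annotated as non-coding RNAs. Of the 19 fallen genes 13 differed by at least 1 log2, and of the 7 risen genes 5 did. No library of one genotype overlapped the other for any of the 26, where 2.59% of all genes were lower and 3.15% higher in pif4 without overlap. Over all genes tested the median difference was 0.01 and 46.4% of differences were below 0. At an unadjusted p under 0.05 there were 630 genes (3.3%), with 325 higher (1.7%) and 305 lower (1.6%). Fitted on the 6 libraries alone, limma called 6 genes. In the fit over all 6 groups, leaving out replicate 1 of the wild type or replicate 2 of pif4 at 29 °C gave 15 calls. In the main fit each standard error pools the spread of all 6 groups, so for a gene it is the same at 29 °C and 22 °C. Replicates of a group correlated at 0.958 to 0.986 at 29 °C and at 0.983 to 0.991 at 22 °C. For genes that spread more at 29 °C, the pooled error understates the spread there and overstates it at 22 °C.

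**Figure D1:**
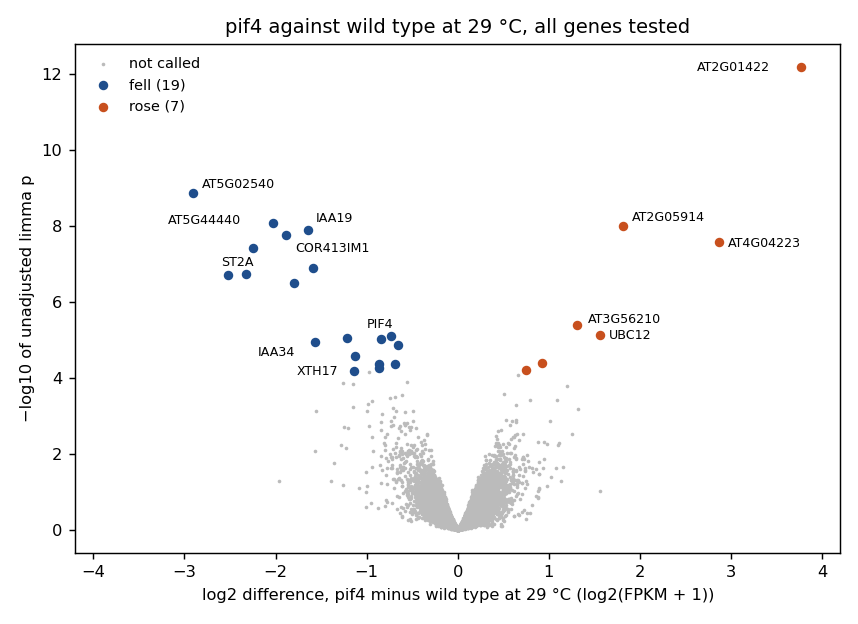
Each point is a gene tested, with the log2 difference between pif4 and the wild type at 29 °C on the x axis and the −log10 of its unadjusted limma p on the y axis. The 19 fallen genes are blue and the 7 risen genes orange, with AT2G01422 at 3.77 and AT5G02540 at -2.90 the most changed on either side.

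PIF4 itself (AT2G43010) was lower but far from absent in the mutant. Wild-type libraries at 29 °C held 19.4, 16.1 and 16.8 FPKM, and pif4 libraries 9.09, 11.0 and 7.84 FPKM. Every mutant library lay below every wild-type library, and the difference was -0.845 ± 0.133 (limma adjusted p = 0.0109). At 22 °C PIF4 was at 10.4, 10.9 and 8.83 FPKM in the wild type and at 7.90, 6.96 and 6.30 FPKM in pif4, again without overlap, but that difference of -0.46 did not pass (adjusted p = 0.987). The call at 29 °C was lost without wild-type replicate 1, pif4 replicate 1 or pif4 replicate 3. A gene-level value does not show which stretch of the gene the reads came from. Of the 10 genes nearest to PIF4 on the chromosome, 5 on each side, 6 were tested and none was called. The largest difference among them was that of AT2G43018, at 14.4, 21.6 and 3.96 FPKM in the wild type and 23.4, 32.3 and 27.8 FPKM in pif4 (1.26 ± 0.36, adjusted p = 0.703).

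Upstream windows of 6 genes show which called genes carry the letters that PIF factors are known to bind. The windows are the 250 bases before the annotated gene start in the TAIR10.1 reference, and capitals mark each CACGTG or CATGTG, searched on both strands. No match of one motif shared bases with the other. The 5 fallen genes with a match come first, in order of their change, and the risen gene with a match last. On chr2:19569790-19570039, plus strand, AT2G47780 has CACGTG at 2 places.
AT2G47780: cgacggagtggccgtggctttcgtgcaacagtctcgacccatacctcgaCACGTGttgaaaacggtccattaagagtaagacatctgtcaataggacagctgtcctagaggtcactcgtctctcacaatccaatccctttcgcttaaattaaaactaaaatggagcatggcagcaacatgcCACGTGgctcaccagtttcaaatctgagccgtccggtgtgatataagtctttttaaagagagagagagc
COR413IM1 lies on the minus strand, with the window at chr1:10289667-10289916.
COR413IM1: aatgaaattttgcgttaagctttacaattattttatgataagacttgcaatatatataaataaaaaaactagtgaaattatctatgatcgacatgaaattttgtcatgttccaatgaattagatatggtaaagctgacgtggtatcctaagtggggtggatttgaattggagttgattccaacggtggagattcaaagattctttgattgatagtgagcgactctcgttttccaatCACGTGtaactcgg
IAA19, on the plus strand at chr3:5263751-5264000, has both motifs.
IAA19: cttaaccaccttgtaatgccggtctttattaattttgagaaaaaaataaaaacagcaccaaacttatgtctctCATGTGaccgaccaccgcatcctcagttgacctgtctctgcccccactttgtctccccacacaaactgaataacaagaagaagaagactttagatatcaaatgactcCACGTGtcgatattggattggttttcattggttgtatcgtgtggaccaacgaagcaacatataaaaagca
XTH17 is on the plus strand, at chr1:24256804-24257053.
XTH17: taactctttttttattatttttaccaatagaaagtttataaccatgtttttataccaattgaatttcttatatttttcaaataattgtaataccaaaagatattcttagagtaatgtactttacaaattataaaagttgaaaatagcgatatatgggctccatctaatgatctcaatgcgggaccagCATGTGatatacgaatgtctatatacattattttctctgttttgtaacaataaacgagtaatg
IAA7 is on the plus strand, at chr3:8194356-8194605.
IAA7: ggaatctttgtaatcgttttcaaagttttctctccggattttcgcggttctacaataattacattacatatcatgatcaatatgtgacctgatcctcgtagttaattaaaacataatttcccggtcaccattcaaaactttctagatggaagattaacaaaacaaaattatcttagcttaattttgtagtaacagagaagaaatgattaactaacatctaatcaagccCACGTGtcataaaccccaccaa
AT2G05914 is on the minus strand, at chr2:2264544-2264793.
AT2G05914: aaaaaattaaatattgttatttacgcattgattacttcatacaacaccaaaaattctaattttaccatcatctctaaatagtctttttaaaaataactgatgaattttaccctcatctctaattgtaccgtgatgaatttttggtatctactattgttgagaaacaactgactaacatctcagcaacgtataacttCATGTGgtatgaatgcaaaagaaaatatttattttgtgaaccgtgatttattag
CACGTG was in the windows of 4 of the 19 fallen genes (21.1%), against 7.38% of the 18986 tested genes with a window. CATGTG was in 2 (10.5%), against 11.1%, and either motif in 5 (26.3%), against 3307 of the 18986. Of the 7 risen genes 0 held CACGTG and 1 held CATGTG. These shares describe the letters in one window per gene and were not tested.

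Auxin signalling held 3 of the fallen genes, all of the Aux/IAA family, whose proteins repress auxin response factors and are degraded in the presence of auxin. IAA19, one of the genes known to be bound and activated by PIF4, was at 21.2, 21.0 and 19.6 FPKM in the wild type and at 6.76, 4.51 and 6.81 FPKM in pif4. The wild-type libraries lay close together and all above the mutant ones, a difference of -1.64 ± 0.155 (limma adjusted p = 4.84e-05). Mean FPKM was 3.42-fold lower in pif4. IAA7, the gene of the axr2 auxin-resistant mutants, was far more abundant per length than IAA19. Its levels were 200, 219 and 230 FPKM in the wild type and 128, 129 and 153 FPKM in pif4, without overlap (-0.66 ± 0.107, adjusted p = 0.0139). This call was lost without wild-type replicate 2 or 3 or pif4 replicate 1 or 2. IAA34 was low, at 2.05, 3.096 and 5.35 FPKM in the wild type and 0.607, 0.186 and 0.612 FPKM in pif4 (-1.56 ± 0.25, adjusted p = 0.0122). Its call was lost without wild-type replicate 3 or pif4 replicate 2, and it overlaps AT1G15060 on the same strand. Over the family 25 of 28 members were tested, with 3 fallen (0.0994% of all genes fell), 0 risen and a median of -0.08. An unadjusted p under 0.05 was found for 5 in the lower direction (1.6% of all genes) and 1 in the higher (1.7%). IAA29, another known PIF target, was at 8.92, 0.380 and 3.48 FPKM in the wild type and 1.29, 0.316 and 0.490 FPKM in pif4. Its wild-type libraries spread widely, and the difference of -1.26 ± 0.64 did not pass (adjusted p = 1).

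No auxin biosynthesis gene changed past the threshold: 9 of 13 were tested, with a median of -0.02. Of these 1, YUC8, had an unadjusted p under 0.05, in the lower direction (1.6% of all genes did). YUC8, a flavin monooxygenase of the last step of auxin synthesis and a known PIF4 target, was at 11.0, 4.67 and 7.198 FPKM in the wild type and 3.51, 3.43 and 4.58 FPKM in pif4. Its highest mutant library lay just below its lowest wild-type library (-0.78 ± 0.22, adjusted p = 0.703). YUC9 was at -0.06 and TAA1, the aminotransferase of the step before, at 0.08, both with overlapping libraries. Of 18 genes of auxin transport and perception 0 passed, 4 had an unadjusted p under 0.05, all lower (1.6% of all genes were), 16 were below 0 (46.4% of all genes) and the median was -0.12. The lowest p there belonged to WAG2, a kinase of the PINOID group, with 2.33, 2.25 and 2.40 FPKM in the wild type and 1.06, 0.930 and 1.15 FPKM in pif4 (-0.70 ± 0.18, adjusted p = 0.401). WAG2 was named after its value was seen, as were the SAUR, light receptor and cold-regulated genes, XTH8, GH3.3 and the glucosinolate genes below.

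The lists of XTH and expansin genes, which act on the cell wall, held 1 fallen gene. XTH17, which encodes a xyloglucan endotransglucosylase/hydrolase, was at 59.7, 79.7 and 69.8 FPKM in the wild type and at 20.7, 29.0 and 48.8 FPKM in pif4. The difference was -1.14 ± 0.214 (limma adjusted p = 0.0498), and replicate 3 of pif4 lay closest to the wild type. Its call held without that library and was lost without any other of the 6, and its transcript is 90.7% identical to that of XTH18 where they align, so the genes could share reads. XTH15, a known PIF target, was at 117, 58.4 and 90.8 FPKM in the wild type and 29.2, 28.4 and 52.2 FPKM in pif4. These groups also did not overlap, but the difference of -1.255 ± 0.25 missed the threshold (adjusted p = 0.0871). XTH8 was at -0.74 ± 0.20 (adjusted p = 0.535). Of 17 XTH genes tested 1 fell (0.0994% of all genes did) and 0 rose, with a median of -0.17. At an unadjusted p under 0.05, 3 of the 17 were lower (1.6% of all genes) and 1 was higher (1.7%). Of 17 expansin genes, whose proteins loosen the wall, 0 passed, with a median of -0.09. An unadjusted p under 0.05 was found for 3 of the expansin genes, all lower (1.6% of all genes were). EXPA8 was the most changed of the expansins, at 135, 57.0 and 74.1 FPKM in the wild type and 46.0, 20.5 and 47.5 FPKM in pif4 (-1.20 ± 0.33, adjusted p = 0.55).

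The gene with the largest fall was AT5G02540, which encodes a protein of the NAD(P)-binding Rossmann-fold superfamily. Its wild-type libraries at 29 °C held 121, 91.6 and 129 FPKM, and its pif4 libraries 15.5, 9.87 and 18.6 FPKM. Mean FPKM was 7.77-fold lower in the mutant (-2.90 ± 0.236, limma adjusted p = 1.37e-05). At 22 °C it stood at 10.4 ± 0.634 FPKM in the wild type and 6.41 ± 1.01 FPKM in pif4 (SD, n = 3), and the wild type there overlapped pif4 at 29 °C. ST2A, a sulfotransferase that sulfates hydroxyjasmonate and so removes it from the jasmonate pool, followed. Its levels were 73.8, 29.0 and 37.0 FPKM in the wild type and 7.79, 7.00 and 5.43 FPKM in pif4 (-2.52 ± 0.291, adjusted p = 0.000342). Replicate 1 of the wild type was far above the others, yet all 3 stood above every mutant library. Of 17 jasmonate genes tested ST2A alone was called, and the median of the list was 0.06.

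AT2G47780, annotated as a rubber elongation factor protein, was at 12.0, 11.5 and 13.7 FPKM in the wild type and at 0.573, 2.83 and 2.13 FPKM in pif4 (-2.33 ± 0.268, limma adjusted p = 0.000342). AT5G44440, a FAD-binding berberine family gene, was at 2.05, 3.64 and 3.83 FPKM in the wild type and listed at 0 in all 3 pif4 libraries (-2.03 ± 0.187 on the log scale, adjusted p = 4.84e-05). It was also close to 0 at 22 °C, at 0.108 ± 0.0982 FPKM in the wild type and 0.0113 ± 0.0196 FPKM in pif4 (SD, n = 3). FLP1, of the family of FLOWERING PROMOTING FACTOR 1, was at 12.9, 10.4 and 10.5 FPKM in the wild type and 2.67, 2.19 and 4.69 FPKM in pif4 (-1.59 ± 0.179, adjusted p = 0.000281). At 22 °C FLP1 was close to 0, at 0.318 ± 0.0277 FPKM in the wild type and 0.072 ± 0.0805 FPKM in pif4 (SD, n = 3).

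FAR1 encodes a fatty acyl-CoA reductase that makes the primary alcohols of suberin. It was at 40.3, 27.1 and 48.5 FPKM in the wild type and 9.92, 5.69 and 6.32 FPKM in pif4 (-2.25 ± 0.231, limma adjusted p = 9.47e-05). ADS1, an acyl-lipid desaturase, was at 45.1, 47.3 and 52.1 FPKM in the wild type and 9.18, 12.5 and 19.5 FPKM in pif4 (-1.80 ± 0.215, adjusted p = 0.000505). DCF, a transferase that puts ferulate into cutin, was at 31.1, 22.0 and 25.96 FPKM in the wild type and 13.5, 8.70 and 12.7 FPKM in pif4 (-1.12 ± 0.194, adjusted p = 0.0257). Its call was lost without wild-type replicate 1 or 3 or pif4 replicate 2. The wild-type and pif4 libraries overlapped in none of these 3 genes. At 22 °C DCF averaged more than at 29 °C in both genotypes, at 37.1 ± 8.66 FPKM in the wild type and 32.4 ± 4.58 FPKM in pif4 (SD, n = 3). FAR1 overlaps AT5G22505 on the other strand. AT2G47780, AT1G09310, DGR2, AT5G24240, GSTF11 and AT2G05914 also have such a partner. If counting ignored strand, which the labels do not tell, reads of partners cannot be told apart.

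COR413IM1, which encodes a cold-regulated protein of the chloroplast inner envelope, was at 45.1, 51.0 and 55.4 FPKM in the wild type and at 11.3, 13.9 and 13.6 FPKM in pif4. That 3.91-fold lower mean (-1.89 ± 0.183, limma adjusted p = 5.81e-05) was among the 9 falls whose calls held with any one of the 6 libraries left out. Fitted on those 6 libraries alone, 3 fallen genes kept their calls: COR413IM1, AT5G02540 and AT5G44440. There IAA19 (limma adjusted p = 0.063) and ST2A (0.129) lost theirs. COR413IM1 was not on the list of cold-regulated genes, of which 11 were tested and 0 passed, with a median of 0.15. Of the 11, 2 (KIN1 and COR15B) had an unadjusted p under 0.05, both higher (1.7% of all genes were). SHL1 encodes a chromatin protein that reads histone marks. Its levels were 35.0, 24.7 and 32.1 FPKM in the wild type and 18.3, 15.5 and 14.9 FPKM in pif4 (-0.87 ± 0.16, adjusted p = 0.0442), and the call was kept in 1 of the 6 fits that leave out a library, that without wild-type replicate 2. SHL1 was also lower without overlap at 22 °C, at 28.8 ± 4.62 FPKM in the wild type and 18.5 ± 0.611 FPKM in pif4 (SD, n = 3). The remaining fallen genes were the pseudogene AT3G13270 (-1.22), AT4G25260 of the invertase and pectin methylesterase inhibitor family (-0.87), AT1G09310 (-0.73) and DGR2 (-0.68). AT1G09310 and DGR2, of the DUF538 and DUF642 families, were named after their values were seen. They were abundant, at 712 ± 75.4 and 542 ± 32.1 FPKM in the wild type against 426 ± 22.9 and 339 ± 51.0 FPKM in pif4 (SD, n = 3). With 1 library left out at a time, AT3G13270 and AT4G25260 lost their calls in 4 of 6 fits, DGR2 in 5 and AT1G09310 in 2.

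**Figure D2:**
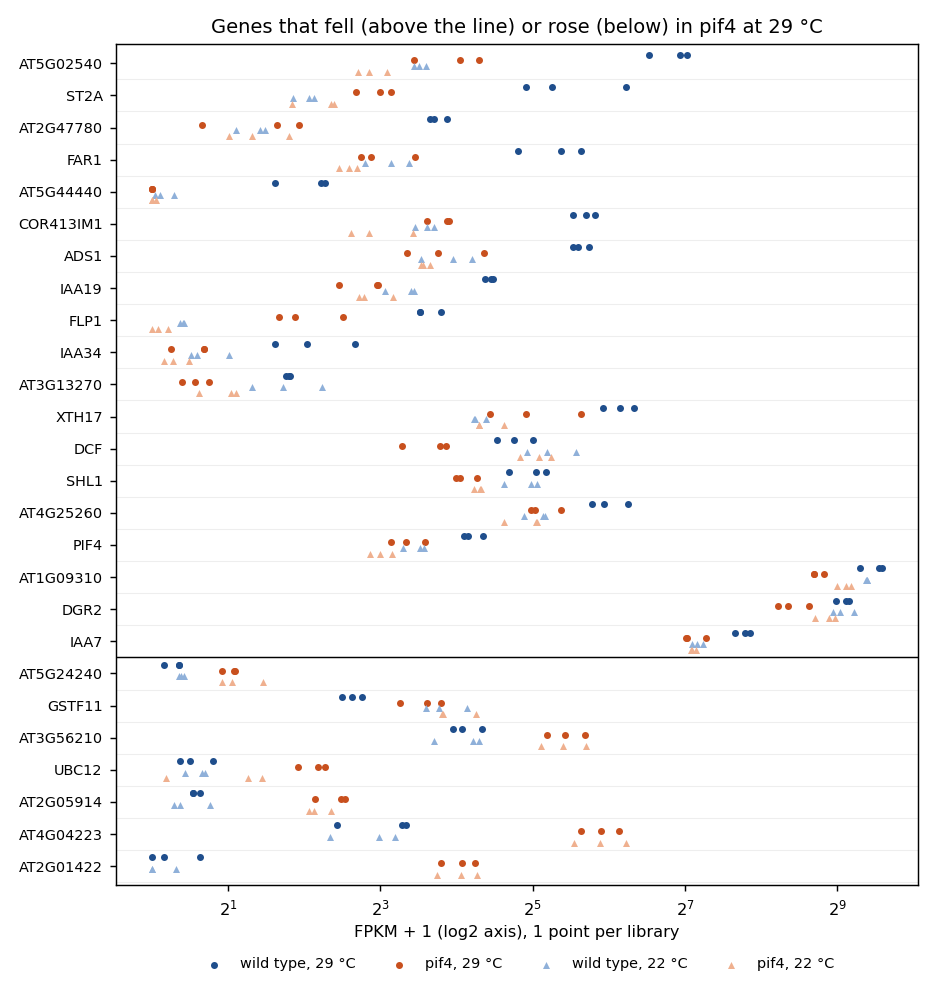
FPKM + 1 in every library, on a log2 axis, is shown for the 19 fallen genes (above the line) and the 7 risen genes (below it), with circles for 29 °C and triangles for 22 °C. At 29 °C the wild-type and pif4 circles do not overlap in any gene, and in the 3 genes at the bottom the triangles lie with the circles of the same genotype.

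The strongest rise was that of AT2G01422, annotated as a non-coding RNA, at 0.542, 0 and 0.118 FPKM in the wild type and at 15.7, 12.9 and 17.84 FPKM in pif4 (3.77 ± 0.184, limma adjusted p = 1.3e-08). The double mutant stayed near the wild type, at 0.259 ± 0.169 FPKM (SD, n = 3). AT2G05914, another non-coding RNA, was at 0.450, 0.448 and 0.554 FPKM in the wild type and 3.395, 4.57 and 4.79 FPKM in pif4 (1.81 ± 0.169, adjusted p = 4.84e-05). AT4G04223, also non-coding, was at 8.76, 9.09 and 4.38 FPKM in the wild type and 48.5, 58.4 and 69.0 FPKM in pif4 (2.87 ± 0.286, adjusted p = 7.21e-05). Part of AT4G04223 matches the ARM repeat gene AT3G56210 at 99.1% identity, so their reads may not be told apart. AT3G56210 rose with it, from 14.5, 19.2 and 15.9 FPKM to 35.5, 41.8 and 50.6 FPKM (1.31 ± 0.192, adjusted p = 0.00615), a call lost without wild-type replicate 1. Both were high in the double mutant at 29 °C too, at 33.6 ± 6.39 and 35.7 ± 1.62 FPKM (SD, n = 3).

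UBC12, a ubiquitin-conjugating enzyme gene, was at 0.296, 0.409 and 0.748 FPKM in the wild type and 3.82, 3.54 and 2.77 FPKM in pif4 (1.56 ± 0.241, limma adjusted p = 0.0103). The call was lost without wild-type replicate 1 or pif4 replicate 1 or 2. GSTF11, a glutathione transferase associated with aliphatic glucosinolate synthesis, was at 5.17, 5.79 and 4.63 FPKM in the wild type and 8.52, 11.2 and 12.8 FPKM in pif4 (0.92 ± 0.166, adjusted p = 0.0369). GSTF11 kept its call only without pif4 replicate 1. The last risen gene, AT5G24240, went from 0.221 ± 0.0941 to 1.04 ± 0.136 FPKM (SD, n = 3) and lost its call (adjusted p = 0.0475) without any one of the 6 libraries; it was named after its value was seen.

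Known PIF targets differed in one direction, but few passed. Of 20 listed genes 19 were tested, and PIL1 was too low to be tested. IAA19 and ST2A fell and none rose, all 19 differences were below 0, and the median was -0.60 against 0.01 for all genes. At the level of single genes 10 had an unadjusted p under 0.05, where 1.6% of all genes did in that direction. Besides those given above, these were HFR1, PRE5, PRE1, ACS8 and BIM1. HFR1, an atypical helix-loop-helix protein that binds PIFs and limits their activity, was at 15.3, 6.51 and 6.36 FPKM in the wild type and 4.16, 3.24 and 2.21 FPKM in pif4 (-1.23 ± 0.40, adjusted p = 1). PRE5, a small helix-loop-helix protein that promotes elongation, was at 2.08, 2.2 and 1.99 FPKM in the wild type and 0.834, 0.967 and 0.980 FPKM in pif4 (-0.68 ± 0.21, adjusted p = 0.954). ATHB2, an HD-ZIP II shade factor, was at 23.8, 4.05 and 15.2 FPKM in the wild type and 11.8, 7.05 and 8.13 FPKM in pif4, with overlap. The list was assembled from genes known to respond to PIFs, so its direction is not independent of what is known of PIF4. This list and the others were also chosen with earlier results of these data known.

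Other growth and light lists held no call. Of 28 SAUR genes, small auxin-induced growth genes, 0 passed, 9 had an unadjusted p under 0.05 in the lower direction (1.6% of all genes did), 23 were below 0 (46.4% of all genes were) and the median was -0.47. The smallest p was that of SAUR63, at 14.5, 9.37 and 14.1 FPKM in the wild type and 7.73, 7.11 and 7.25 FPKM in pif4 (-0.68 ± 0.17, adjusted p = 0.306). SAUR genes stand in clusters of similar sequence and their reads may be split uncertainly. Of 19 PRE and other helix-loop-helix growth genes 0 passed and 5 had an unadjusted p under 0.05, all lower (1.6% of all genes were). Among these PRE5, PRE1 and BIM1 are also on the list of PIF targets. Below 0 were 16 of the 19 (46.4% of all genes), with a median of -0.30. Photoreceptor and light signalling genes had 0 of 18 past the threshold and a median of -0.18. At an unadjusted p under 0.05 there were 3, all lower (1.6% of all genes were). The far-red receptor gene PHYA was at 64.4, 51.2 and 58.5 FPKM in the wild type and 44.1, 28.1 and 34.7 FPKM in pif4 (-0.71 ± 0.17, adjusted p = 0.276). GH3.3, an enzyme that conjugates auxin to amino acids, was at -0.84 ± 0.23 (adjusted p = 0.595). The other PIF genes did not pass: PIF5 was at -0.27, PIF3 at -0.20, PIF1 at -0.23 and PIF7 at 0.30.

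Genes of aliphatic glucosinolates, the methionine-derived defence compounds, lay on the other side. All 13 tested were above 0, where 53.6% of all genes were, from 0.17 to 0.80 with a median of 0.33. Of these 0 passed, while 6 had an unadjusted p under 0.05, where 1.7% of all genes did in that direction. MYB29, a transcription factor of the pathway, was at 0.746, 1.19 and 1.00 FPKM in the wild type and 2.34, 2.64 and 2.29 FPKM in pif4 (0.80 ± 0.18, adjusted p = 0.20). BCAT4, the aminotransferase that opens the chain elongation of methionine, was at 62.8, 74.2 and 64.0 FPKM in the wild type and 84.3, 103 and 142 FPKM in pif4 (0.68 ± 0.20, adjusted p = 0.869). In neither gene did the groups overlap, and 5 of the 13 were higher without overlap, where 3.15% of all genes were. The glucosinolate list, too, was chosen with earlier results of these data known. Heat shock genes had 19 of 21 above 0 and a median of 0.29, with 0 past the threshold and with summed levels that overlapped between genotypes. Clock genes (0 of 23, median 0.06), light harvesting and chlorophyll genes (0 of 24, median -0.04) and B-box genes (0 of 17, median 0.01) had no call, and neither they nor the heat shock genes held a member at an unadjusted p under 0.05. Reference genes ran from -0.16 to 0.14. Of markers of other tissues or states, root genes summed to between 177 and 261 FPKM per wild-type library and between 139 and 328 FPKM per pif4 library. Touch and stress genes summed to 371 to 455 and 453 to 530 FPKM, and senescence genes to 170 to 250 and 117 to 231 FPKM. Seed storage genes were near 0 in both but did not overlap, with 0.731 to 1.30 FPKM in wild-type libraries and 1.54 to 2.60 FPKM in pif4 libraries. Their part in the results was not tested.

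**Figure D3:**
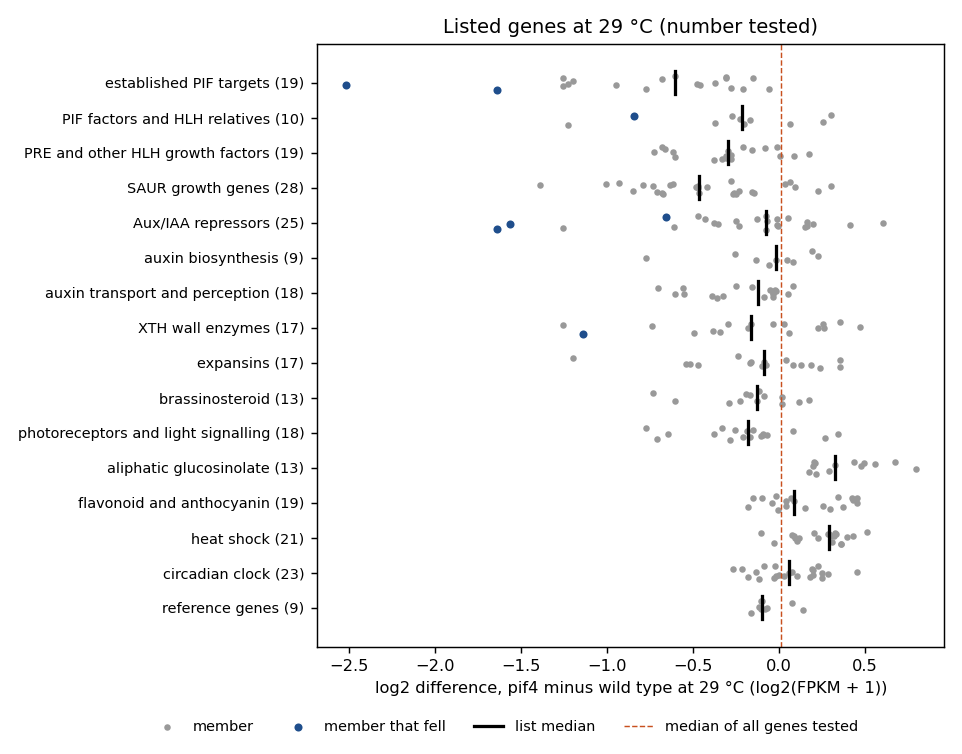
Log2 differences between pif4 and the wild type at 29 °C are shown for each tested member of 16 gene lists, with a black bar at the list median and a dashed line at the median of all genes tested (0.01). Known PIF targets all lie below 0 and aliphatic glucosinolate genes all above 0, while the blue points are the listed genes that fell.

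The same genotypes were also compared at 22 °C, in other libraries but in the same fit. Both comparisons take their spread from all 18 libraries, so they are not independent. There 4 genes rose and 0 fell, or 0.0209% of the genes tested, with 619 genes at an unadjusted p under 0.05 (3.24%), 161 of them lower (0.842%). The 4 were AT2G01422, AT4G04223, AT2G05914 and AT3G56210, all among the 7 that rose at 29 °C. AT2G01422 was at 0, 0 and 0.241 FPKM in the wild type and 18.21, 12.4 and 15.6 FPKM in pif4 at 22 °C (3.92 ± 0.184, limma adjusted p = 7.19e-09). AT4G04223 differed by 3.05, AT2G05914 by 1.71 and AT3G56210 by 1.33, each close to its value at 29 °C. None of the 19 genes that fell at 29 °C was called at 22 °C, where their median was -0.30 against -1.56 at 29 °C. The 19 were picked by their differences at 29 °C, which inflates the median there, so the medians do not measure a change with temperature. Of the 19, 16 were below 0 at 22 °C, where 41.5% of all genes were, and 9 did not overlap, where 3.74% of all genes were lower without overlap. Known PIF targets had a median of -0.29 at 22 °C, with 15 of 19 below 0. For SAUR genes the median there was -0.24, with 18 of 28 below 0, against a median of 0.04 for all genes. Replicate numbers pair these libraries at 22 °C, which the counts above ignore. A fit with a replicate block within temperature gave other counts: 11 genes rose and 2 fell there.

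The change of the difference with temperature was then tested itself. It passed for 3 genes, or 0.0157% of those tested, with 248 at an unadjusted p under 0.05 (1.3%), and in each pif4 was lower relative to the wild type at 29 °C than at 22 °C. ST2A differed between temperatures by -2.70 ± 0.412 (limma adjusted p = 0.0422). At 22 °C it stood at 3.16, 2.61 and 3.35 FPKM in the wild type and 4.09, 2.56 and 4.24 FPKM in pif4, with overlap. AT5G02540 differed by -2.27 ± 0.334 (adjusted p = 0.0409) and AT5G44440 by -1.91 ± 0.264 (adjusted p = 0.0398). These calls were close to the threshold. No call was made without any one wild-type library at 22 °C, wild-type replicate 3 or pif4 replicate 1 or 2 at 29 °C, or pif4 replicate 1 or 3 at 22 °C, and 1 was made without wild-type replicate 1 at 29 °C. For the other 16 fallen genes the change between temperatures did not pass in this fit. With a replicate block within temperature 8 genes passed, the same 3 among them, and with a plain replicate block 5 did, again with these 3.

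**Figure D4:**
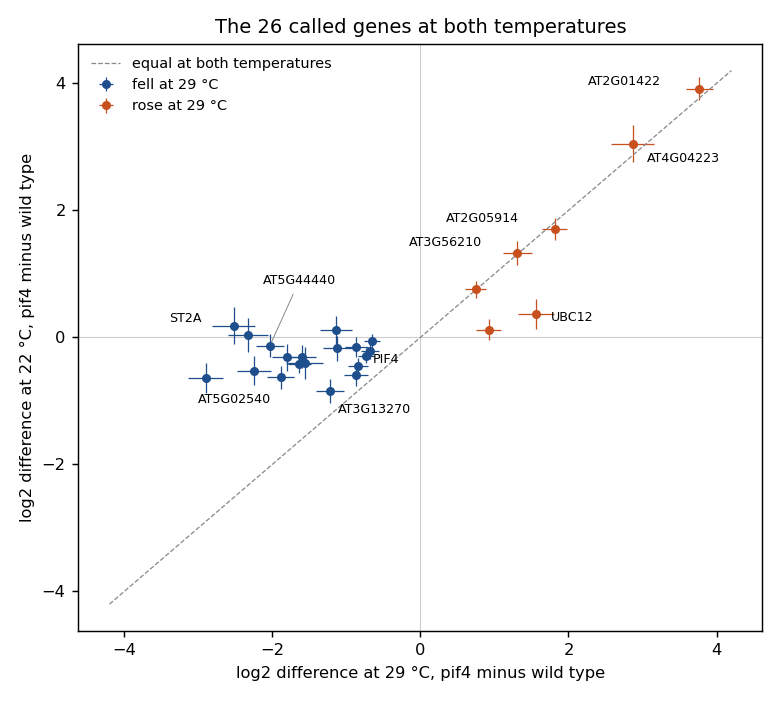
For the 26 called genes, the log2 difference between pif4 and the wild type at 29 °C is on the x axis and that at 22 °C on the y axis, with bars of 1 standard error and a dashed line where they are equal. The 4 genes called at both temperatures lie near the line, while the fallen genes lie between 0.18 and -0.84 at 22 °C.

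Levels in all 6 groups place these genes side by side. IAA19 averaged 8.94 ± 1.38 FPKM in the wild type and 6.48 ± 1.26 FPKM in pif4 at 22 °C, and 20.6 ± 0.846 and 6.03 ± 1.31 FPKM at 29 °C (SD, n = 3). The mutant thus had overlapping levels at both temperatures. XTH17 averaged 18.6 ± 1.24 and 20.3 ± 2.94 FPKM at 22 °C, and 69.7 ± 9.96 and 32.8 ± 14.4 FPKM at 29 °C, and in pif4 its libraries overlapped between temperatures. COR413IM1 averaged 11.1 ± 1.07 FPKM in wild-type seedlings at 22 °C, against 12.9 ± 1.44 FPKM in pif4 at 29 °C. The bbx18 bbx23 double mutant at 29 °C, for which the wild type is the common control, had 32.1 ± 6.68 FPKM of COR413IM1, 15.9 ± 1.05 of IAA19, 33.2 ± 10.9 of ST2A and 59.2 ± 5.92 of XTH17 (SD, n = 3). PIF4 stood at 15.1 ± 0.585 FPKM in that double mutant.

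**Figure D5:**
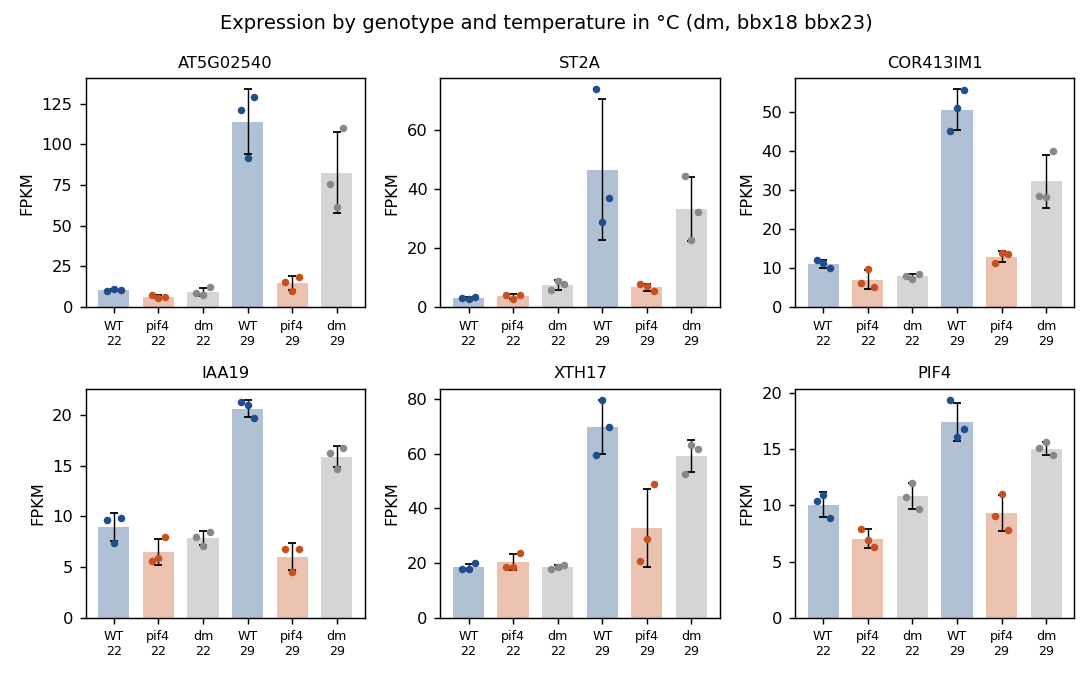
FPKM of 6 genes by genotype and temperature, with bars at the mean, error bars of 1 SD and 1 point per library (3 per group; dm is bbx18 bbx23). In the first 5 genes pif4 at 29 °C lies well below the wild type at 29 °C, and PIF4 itself averaged 9.32 FPKM in pif4 against 17.44 FPKM in the wild type.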

How the data were processed

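Trizol-extracted RNA went into TruSeq libraries, per the labels' protocols. The authors deposited FPKM per gene for 33602 genes, 1 column per library. Bowtie 0.12.2 and the build mm8 are named, per the submitters' processing notes. mm8 is a mouse build, so the genome, annotation and counter used were not given in the sources used here.

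Genes with at least 1 FPKM in 3 or more of the 18 libraries (19116) were tested on log2(FPKM + 1) with limma 3.58.1 in R 4.3.3. A coefficient for each of the 6 groups was fitted to all 18 libraries, with a variance trend, 2-sided moderated tests and Benjamini-Hochberg adjustment within each contrast. The script was tested on simulated data with independent errors and no replicate structure, so that test does not measure its error rate here. The members, the 37 gene lists (561 entries, 513 tested) and the tests were chosen with earlier results of these data known. The rule named PIF4, the 10 genes beside it, the 15 risen and the 15 fallen genes at most with the largest difference, with no overlap and a mean of 2 FPKM, up to 5 called genes per list, and members of the PIF, PIF target, auxin biosynthesis and reference lists. Names, overlaps, upstream windows and close copies (blastn 2.17.0, 90% identity) came from the RefSeq annotation of TAIR10.1, which held 32835 of the identifiers. Alternatives were a pseudocount of 0.1, no filter, size factors, no variance trend, only the libraries compared, libraries left out, and blocks for replicate number. At 22 °C same-numbered wild-type and pif4 libraries deviated together (correlations of 0.502, 0.491 and 0.604), but the labels do not state a pairing. The main fit ignores it, also at 22 °C, and it entered only the fits with a replicate block.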

Additional observations from a re-analysis of the deposited data

Results flagged for a closer look

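The difference between pif4 and the wild type changed between 22 °C and 29 °C for 3 genes by the limma test of that change itself. It was -2.27 for AT5G02540 (adjusted p = 0.0409), -1.905 for AT5G44440 (adjusted p = 0.0398) and -2.70 for ST2A (adjusted p = 0.0422). At 29 °C each gene was lower in 3 of 3 pif4 libraries than in any wild-type library. All 3 calls were lost at a pseudocount of 0.1.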

How the results depend on the processing

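No call at 29 °C changed direction under any alternative. The 26 calls (19 fallen, 7 risen) all held with size factors, and 25 without a variance trend. Fitted on only the libraries compared, there were 6 calls (3 fallen, 3 risen) and 0 listed genes called, against 6. Leaving out 1 library gave 15 to 29 calls, 11 to 23 fallen, 3 to 6 risen and 3 to 7 listed genes. Without replicate 1, 2 or 3 at 29 °C in all genotypes there were 14, 13 and 15 calls (11, 10 and 12 fallen, 3 risen in each) and 3 listed genes in each. With a replicate block within temperature there were 47 calls (40 fallen) and 14 listed genes at 29 °C, 13 calls at 22 °C (11 risen, 2 fallen), and 8 for the change between temperatures. With a plain replicate block the calls were 27 at 29 °C and 5 for the change. At 29 °C XTH15 gained a call with the replicate block within temperature (adjusted p = 0.0095) and the plain one (0.0173), and EXPA8 with the first (0.00362) but not the second (0.229). SHL1 lost its call with the plain block (0.0705), and AT5G24240 with both (0.0716 and 0.094). At 29 °C same-numbered wild-type and pif4 libraries deviated together for replicates 1 and 2 (correlations of 0.467 and 0.694) but not for replicate 3 (-0.324). Without the filter there were 7 calls at 22 °C, all risen, and 1 for the change. The 3 calls for the change became 0 at a pseudocount of 0.1 and 0 to 6 with a library left out. Where the cause is not the smaller number of libraries, it was not tested. Of 592 list medians under alternatives, 20 moved by more than the spread.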

Other observations

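AT2G01422 stands beside the auxin transporter gene PIN4, on the other strand. PIN4 was at 57.9, 53.8 and 50.2 FPKM in the wild type and 33.9, 38.4 and 52.2 FPKM in pif4 at 29 °C, with overlap (-0.39 ± 0.19, limma adjusted p = 1). PAO2, next to PIF4, was at 9.87 FPKM in replicate 3 of the wild type at 29 °C, the library in which its neighbour AT2G43018 was lowest, at 3.96 FPKM. These genes were picked after their values were seen.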
